A study of Mus musculus with 7 samples.

Results

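Transcripts of the unfolded protein response and of the amino acid stress response were followed in single whole mouse embryos on day 10.5 of gestation (E10.5), with and without exposure to maternal diabetes. The genes were Atf4, Ddit3, Xbp1, Trib3, Chac1, Hspa5, Herpud1, Asns, Psat1 and Phgdh. All 25 probe sets that the array annotation assigns to these 10 genes were taken, of 22690 on the array, and 24 of the 25 passed the filter on low signals. The genes were chosen by name with results of these arrays already known, so that the comparison of exposed with control embryos is given for them as a description, without a test.

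All embryos were of the inbred FVB strain. The exposed embryos came from 1 dam made diabetic with streptozotocin, a toxin of the insulin-producing cells, and were 2 embryos with a neural tube defect (NTD embryos) and 3 embryos without one (non-NTD embryos). The 2 control embryos came from 1 dam without diabetes, which means that diabetes cannot be told apart from litter, and the spread behind every p-value is that between littermates. RNA of each embryo was hybridized to its own Affymetrix 430A 2.0 array, and the deposited values are linear signal intensities that the authors computed with MAS5 and scaled on each array.

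Cells answer an overload of unfolded protein in the endoplasmic reticulum (ER) through the sensors PERK, IRE1 and ATF6. PERK and related kinases that sense amino acid shortage, heme deficiency or double-stranded RNA phosphorylate the initiation factor eIF2, which lowers protein synthesis in general and raises translation of the transcription factor ATF4. ATF4 then turns on genes for amino acid synthesis and import, together with Ddit3, Trib3 and Chac1. IRE1 splices the Xbp1 mRNA into the form that encodes an active transcription factor, and XBP1 and ATF6 act on genes for ER chaperones such as Hspa5 and for the degradation of misfolded protein. ATF4 is controlled largely in translation and XBP1 in splicing, and neither step was measured here.

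Short DNA elements for these factors are known, and the 250 bases upstream of each gene's start in the RefSeq table for GRCm38.p6 were searched for 4 of them on both strands. These were the C/EBP-ATF response element that ATF4 complexes bind, TGATGNAA (CARE), the ER stress response element (ERSE), which is CCAAT, any 9 bases and CCACG, its second form (ERSE-II), which is ATTGG, any base and CCACG, and the core of the unfolded protein response element, TGACGTG (UPRE). The 10 genes had 11 such windows, as Psat1 has 2 starts in the table. A match was found in 4 genes, and their windows are printed with the matching bases in capitals. Asns and Chac1 held CARE alone, Herpud1 held CARE and ERSE-II, and Hspa5 held UPRE and ERSE.
Asns (chr6:7693210-7693459, minus strand, CARE): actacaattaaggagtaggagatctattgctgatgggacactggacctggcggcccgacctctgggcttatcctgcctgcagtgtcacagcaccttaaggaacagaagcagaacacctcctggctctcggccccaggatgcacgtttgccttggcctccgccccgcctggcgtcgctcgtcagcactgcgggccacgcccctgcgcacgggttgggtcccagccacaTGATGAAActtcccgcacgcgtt
Chac1 (chr2:119350992-119351241, plus strand, CARE on the opposite strand): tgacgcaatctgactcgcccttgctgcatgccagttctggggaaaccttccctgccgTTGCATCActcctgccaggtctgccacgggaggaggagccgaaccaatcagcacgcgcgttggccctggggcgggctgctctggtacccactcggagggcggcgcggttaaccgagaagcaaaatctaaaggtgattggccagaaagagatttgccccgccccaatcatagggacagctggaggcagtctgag
Herpud1 (chr8:94386179-94386428, plus strand, CARE on the opposite strand, then ERSE-II): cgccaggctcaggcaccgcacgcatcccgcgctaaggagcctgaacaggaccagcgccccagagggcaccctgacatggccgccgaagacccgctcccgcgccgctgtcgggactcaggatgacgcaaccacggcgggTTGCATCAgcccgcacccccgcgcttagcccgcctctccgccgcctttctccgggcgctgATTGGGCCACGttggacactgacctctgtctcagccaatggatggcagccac
Hspa5 (chr2:34771840-34772089, plus strand, UPRE, then ERSE): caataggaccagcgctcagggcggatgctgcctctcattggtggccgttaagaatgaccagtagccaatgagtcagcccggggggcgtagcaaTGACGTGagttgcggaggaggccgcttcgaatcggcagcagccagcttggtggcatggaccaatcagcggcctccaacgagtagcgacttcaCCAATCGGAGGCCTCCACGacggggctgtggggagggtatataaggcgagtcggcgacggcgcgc

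The CARE letters lay at -23 to -16 from the start of Asns, at -193 to -186 from that of Chac1 and at -112 to -105 from that of Herpud1. They occur in 3.45% of the 32851 mouse promoter windows of the same length. Herpud1 also held the ERSE-II letters at -52 to -42, which 0.0304% of the windows hold. Hspa5 held the ERSE letters at -65 to -47 and the UPRE letters at -157 to -151, found in 0.113% and 1.65% of the windows. None of the matches overlapped another. A match describes the letters only, and binding was not measured in these embryos.

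Among the 10 genes, the widest differences lay between 1 embryo and the other 6. Non-NTD embryo 1 had signals of Chac1, Ddit3, Trib3 and Herpud1 well above those of every other embryo, and its Asns and Psat1 signals were also the highest. For Chac1 the other exposed embryos had signals of 154 to 204, against 114 and 168 in controls. They lay above both controls in Asns 1451095_at and Trib3 1426065_a_at, and below both in Herpud1 1448185_at and Xbp1 1420886_a_at. Hspa5 and Phgdh varied less between embryos. No Xbp1 probe set was highest in non-NTD embryo 1, and 1420011_s_at of this gene ran from 391 in that embryo to 846 in NTD embryo 1.

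**Figure D1:**
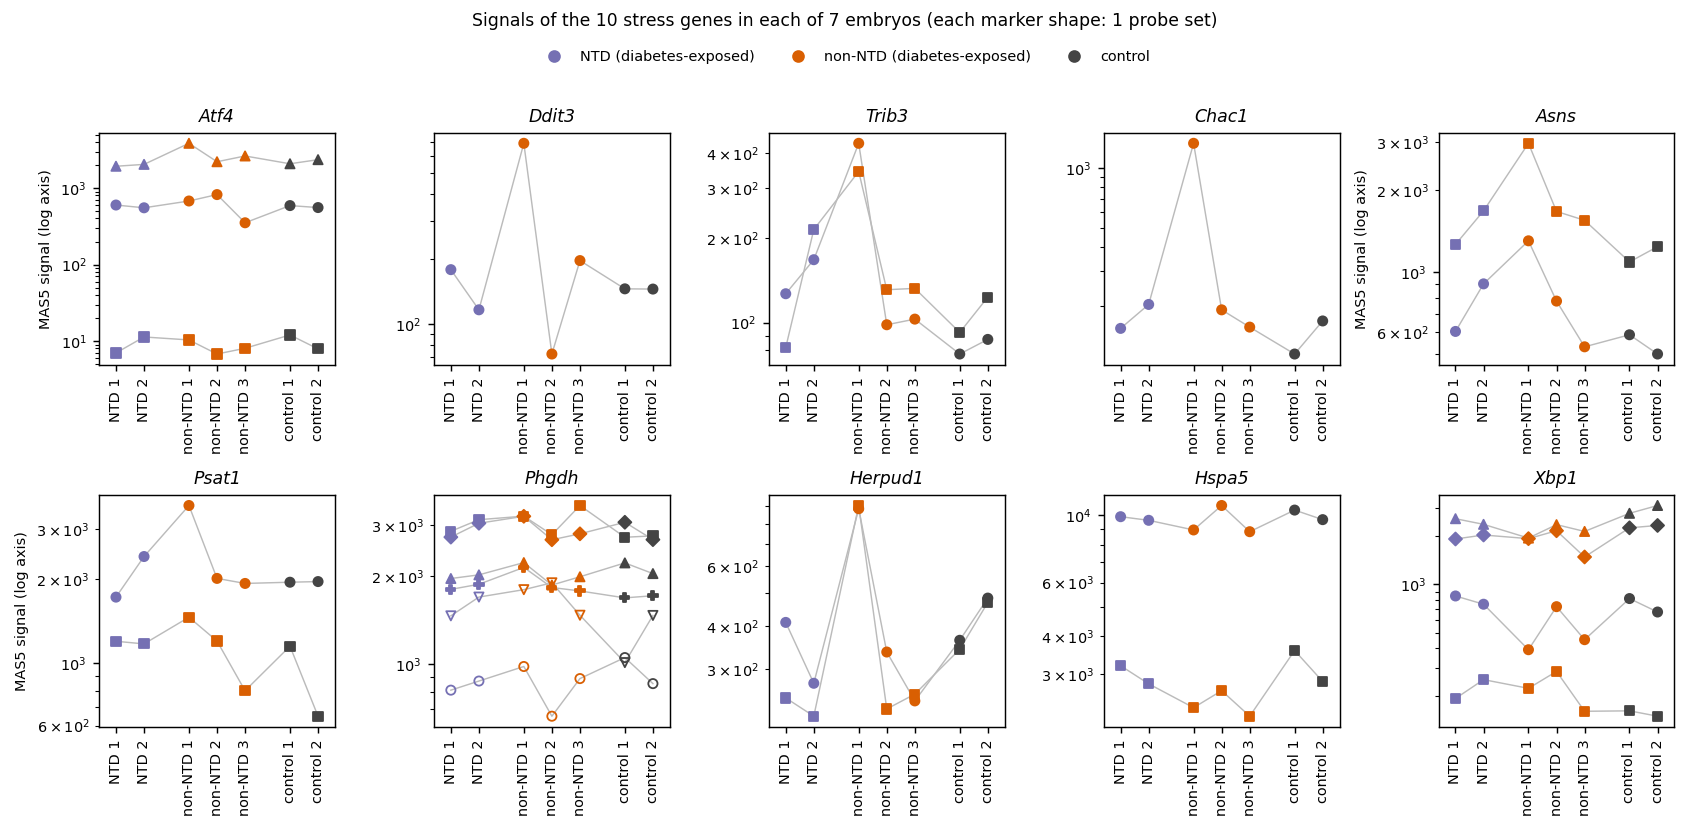
MAS5 signal on a log axis in each of the 7 embryos (2 NTD and 3 non-NTD exposed embryos, 2 controls) for every probe set of the 10 genes, with 1 marker shape per probe set, lines joining the values of a probe set, and open markers for probe sets shared with a predicted gene. Chac1 reached 1339 in non-NTD embryo 1 and 114 to 204 in the other 6 embryos, while the brighter Hspa5 probe set lay between 8833 and 10781 in all 7.

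Atf4 encodes the transcription factor at the head of the amino acid response. Its brightest probe set (1448135_at) had signals of 1927 and 2039 in NTD embryos 1 and 2, 3846, 2208 and 2626 in non-NTD embryos 1, 2 and 3, and 2077 and 2350 in controls 1 and 2. Non-NTD embryo 1 was the highest, and the groups overlapped. The second probe set (1438992_x_at) had signals of 599.9 and 552 in NTD embryos, 677, 822 and 352 in non-NTD embryos, and 589.8 and 556 in controls, so that here non-NTD embryo 2 was the highest and non-NTD embryo 3 the lowest. The third (1439258_at) stayed between 6.76 and 12.0 and was not tested. The log2 fold changes of exposed over control embryos were 0.15 (SE 0.23) and 0.01 (SE 0.26) for the first 2 probe sets, with n = 5 exposed and 2 control embryos here and below.

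Ddit3 encodes CHOP, a transcription factor linked to cell death under prolonged stress. It had signals of 178 and 116 in NTD embryos 1 and 2, 687, 72.4 and 196 in non-NTD embryos 1, 2 and 3, and 145 in both controls. The exposed embryos thus held both the highest and the lowest signals, and non-NTD embryo 1 exceeded the next embryo 3.50-fold. The log2 fold change of exposed over control embryos was 0.33 (SE 0.65), and without non-NTD embryo 1 it was -0.15 (SE 0.38).

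Trib3 encodes a pseudokinase that is induced by ATF4 and CHOP and feeds back on both. Its probe set 1426065_a_at had signals of 127 and 167 in NTD embryos 1 and 2, 433, 98.3 and 103 in non-NTD embryos 1, 2 and 3, and 77.4 and 87.2 in controls 1 and 2. All exposed embryos lay above both controls here. The other probe set, 1456225_x_at, had 81.6 and 214 in NTD embryos, 344, 131 and 132 in non-NTD embryos, and 92.3 and 123 in controls, with NTD embryo 1 below both controls. Only 2 embryos, non-NTD embryo 1 and NTD embryo 2, carried both probe sets over the filter, which is the array's 40th percentile of 131 to 146. Exposed over control embryos gave log2 fold changes of 0.93 (SE 0.50) and 0.58 (SE 0.46), and 0.56 (SE 0.32) and 0.31 (SE 0.37) without non-NTD embryo 1.

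Chac1 encodes an enzyme that degrades glutathione. It had signals of 154 and 204 in NTD embryos 1 and 2, 1339, 191 and 156 in non-NTD embryos 1, 2 and 3, and 114 and 168 in controls 1 and 2. Non-NTD embryo 1 exceeded the next embryo 6.57-fold and the median of the other 6 embryos 8.26-fold, the largest ratio among the tested probe sets of the 10 genes. The other exposed embryos overlapped the controls. The log2 fold change was 0.93 (SE 0.70), and 0.34 (SE 0.24) without non-NTD embryo 1.

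Asns encodes asparagine synthetase, which makes asparagine from aspartate. Its probe set 1451095_at had signals of 1261 and 1675 in NTD embryos 1 and 2, 2964, 1667 and 1546 in non-NTD embryos 1, 2 and 3, and 1088 and 1238 in controls 1 and 2. All exposed embryos lay above both controls, though NTD embryo 1 only by a small margin. The probe set 1433966_x_at had signals of 604 and 904 in NTD embryos, 1300.3, 781 and 531 in non-NTD embryos, and 588 and 499 in controls, with overlap. For exposed over control embryos they differed by a log2 fold change of 0.59 (SE 0.26) and 0.53 (SE 0.29), and 0.40 (SE 0.14) and 0.35 (SE 0.21) without non-NTD embryo 1.

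Psat1 and Phgdh encode enzymes of serine synthesis, with Phgdh at the first step and Psat1 at the next. Psat1 (1451064_a_at) had signals of 1721 and 2401 in NTD embryos 1 and 2, 3649, 2007 and 1926 in non-NTD embryos 1, 2 and 3, and 1945 and 1956 in controls 1 and 2. Its other probe set (1454607_s_at) had 1199 and 1173 in NTD embryos, 1460.0, 1201 and 799 in non-NTD embryos, and 1151 and 648 in controls. Both were highest in non-NTD embryo 1, and both overlapped between exposed and control embryos. Their log2 fold changes were 0.21 (SE 0.24) and 0.41 (SE 0.25). Without non-NTD embryo 1 the first was 0.04 (SE 0.14). The second rests on control 2, without which it was -0.01.

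The 6 probe sets of Phgdh varied little between embryos. The brightest, 1426658_x_at, had signals of 2855 and 3129 in NTD embryos 1 and 2, 3217, 2778 and 3500 in non-NTD embryos 1, 2 and 3, and 2723 and 2754 in controls 1 and 2. The log2 fold changes of the 6 ran from -0.18 (SE 0.16) to 0.44 (SE 0.17). Both ends of that range belong to probe sets annotated also to a predicted gene (Gm8096 and Gm6756), so that their signals cannot be assigned to Phgdh alone. Of the 4 annotated to Phgdh alone, 1426658_x_at and 1456584_x_at had all exposed embryos above both controls, with log2 fold changes of 0.17 (SE 0.12) and 0.15 (SE 0.12).

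Herpud1 encodes a membrane protein of the ER that takes part in the degradation of misfolded proteins. Its probe set 1448185_at had signals of 247 and 218 in NTD embryos 1 and 2, 906, 229 and 253 in non-NTD embryos 1, 2 and 3, and 343 and 470 in controls 1 and 2. Apart from non-NTD embryo 1, which exceeded the next embryo 1.93-fold, every exposed embryo lay below both controls. The probe set 1435626_a_at had signals of 411 and 273 in NTD embryos, 886, 337 and 242 in non-NTD embryos, and 364 and 485 in controls, and NTD embryo 1 lay among the controls. The log2 fold changes were -0.38 (SE 0.47) and -0.14 (SE 0.41). Without non-NTD embryo 1 they were -0.76 (SE 0.17) and -0.44 (SE 0.22).

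Hspa5 encodes BiP, the main HSP70 chaperone of the ER and a standard marker of the unfolded protein response. Its brighter probe set (1416064_a_at) had signals of 9900.2 and 9631 in NTD embryos 1 and 2, 8951, 10781 and 8833 in non-NTD embryos 1, 2 and 3, and 10411 and 9681 in controls 1 and 2. The other (1427464_s_at) had signals of 3187 and 2778 in NTD embryos, 2317, 2637 and 2172 in non-NTD embryos, and 3579 and 2827 in controls. Non-NTD embryo 1 stood next to the lowest of the 7 in both. The log2 fold changes were -0.07 (SE 0.10) and -0.29 (SE 0.16).

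Xbp1 encodes the transcription factor that IRE1 activates. Its brightest probe set (1420886_a_at) had signals of 2565 and 2365 in NTD embryos 1 and 2, 1942, 2355 and 2137 in non-NTD embryos 1, 2 and 3, and 2771 and 3101 in controls 1 and 2, so that every exposed embryo lay below both controls and non-NTD embryo 1 was the lowest. The same held between the groups for 1437223_s_at, with 1917 and 2030.1 in NTD embryos, 1927, 2158 and 1481 in non-NTD embryos, and 2250.1 and 2328 in controls. The probe set 1420012_at went the other way in its mean, with 194 and 255 in NTD embryos, 225, 287 and 162 in non-NTD embryos, and 163 and 151 in controls. The log2 fold changes of exposed over control embryos were -0.37 (SE 0.13), -0.28 (SE 0.15) and 0.49 (SE 0.23) for these 3, and -0.29 (SE 0.28) for the fourth, 1420011_s_at. The array does not tell which of these transcripts were spliced.

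Set side by side, 15 of the 24 tested probe sets had a positive and 9 a negative log2 fold change of exposed over control embryos. The median was 0.147, against 0.000326 over all 14554 tested probe sets, and -0.022 without non-NTD embryo 1. None of the 24 was called in the limma fit, at a threshold of 0.05 for p adjusted by Benjamini-Hochberg, where 0.172% of all tested probe sets were called. In 4 of the 24 (Asns 1451095_at, Trib3 1426065_a_at, Phgdh 1426658_x_at and 1456584_x_at) all exposed embryos lay above both controls, as in 11.4% of all tested probe sets. In 2 (Xbp1 1420886_a_at and 1437223_s_at) all lay below both controls, as in 13.4% of all. Nothing is read from these counts, since the genes were chosen with this comparison known.

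**Figure D2:**
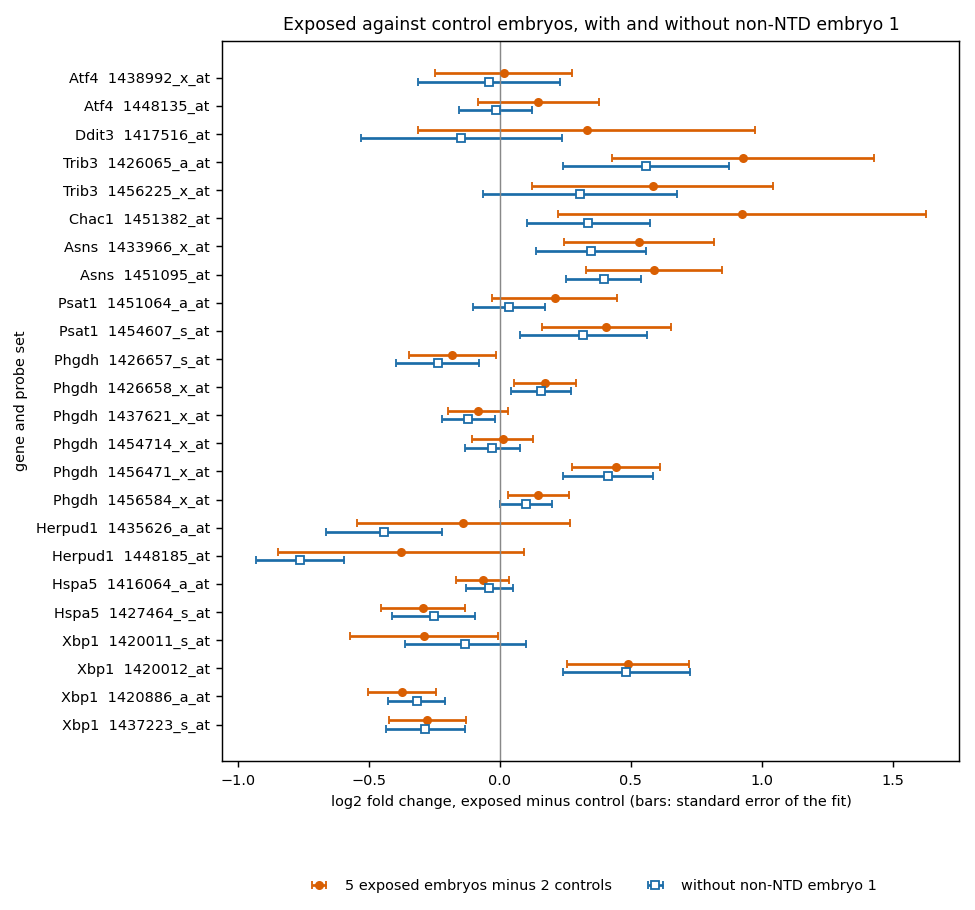
Log2 fold change of exposed over control embryos with its standard error for the 24 tested probe sets, from all 7 embryos (filled circles, 5 exposed and 2 control embryos) and without non-NTD embryo 1 (open squares). The Chac1 estimate was 0.93 with and 0.34 without this embryo, and that of Ddit3 was above 0 with it and below 0 without it.

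Leaving out non-NTD embryo 1 turned the direction for 4 of the 24 probe sets, those of Ddit3 (1417516_at), Phgdh (1454714_x_at) and Atf4 (1438992_x_at and 1448135_at). The 2 Atf4 estimates were then -0.04 (SE 0.27) and -0.02 (SE 0.14). Leaving out control 2 turned the direction for 4 as well, among them Psat1 1454607_s_at and Herpud1 1435626_a_at, whose estimate was then 0.07.

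Non-NTD embryo 1 had the highest signal of the 7 embryos in 14 of the 24 probe sets, against 23.2% of all tested probe sets. It had more than 1.5 times the signal of every other embryo in 8 of the 24, against 1.09% of all, a limit that was chosen after the values were seen. These 8 belong to Chac1, Ddit3, Trib3 (both), Herpud1 (both), Asns (1451095_at) and Psat1 (1451064_a_at). It was the lowest of the 7 in 2, both of Xbp1, against 20.7% of all. No other embryo exceeded all the rest by more than 1.5 times in any of the 24. These counts describe 1 embryo, for which there is no replicate and no test.

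**Figure D3:**
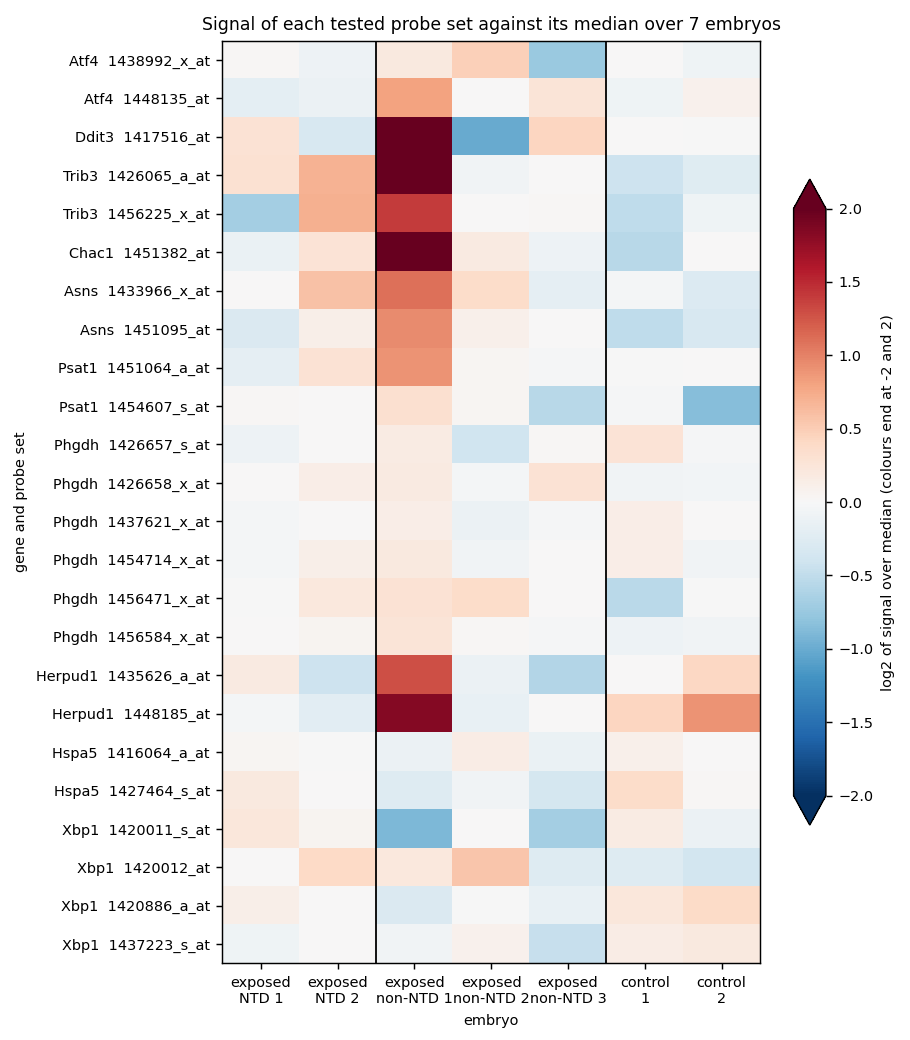
Log2 of each signal over the median of its probe set across the 7 embryos (colour, red above and blue below the median, ending at -2 and 2), with the 24 tested probe sets in rows and NTD, non-NTD and control embryos in columns. The darkest red cells are Chac1, Ddit3, Trib3 and Herpud1 in non-NTD embryo 1.

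The same embryo was unlike the others in a group of transcripts that mark yolk sac endoderm and liver. Of 35 probe sets for 19 such genes, 30 had their highest signal in it, 29 of them by more than 1.5 times. Only 13 of the 35 passed the filter on low signals, so the shares over tested probe sets do not apply to this count. The summed signal of all 35 was 53204 in non-NTD embryo 1, 2814 to 5370.3 in the other 4 exposed embryos and 7098 to 8099 in the controls. Afp (1416645_a_at), a serum protein of the fetus, had a signal of 6626 in it and 507 to 2349 in the other 6 embryos. Apoa2, an apolipoprotein, had 2897 against 144 to 252, and Rbp4 and Ttr (1454608_x_at), which carry retinol and thyroid hormone, had 4661 against 276 to 421 and 3568 against 152 to 488. Alb, the albumin gene, had 226 in this embryo and 128 to 426 in the others. Epithelial markers summed to 5290 in it, against 3220.1 to 4276 in the other exposed embryos and 2406 to 2701 in controls. Erythroid markers summed to 165644, against 130006 to 137710 and 109431 to 110027, mostly from globin probe sets. The erythroid genes Klf1, Gata1 and Epor were lower in non-NTD embryo 1 than in every other exposed embryo, with 600 against 713 to 804 for Klf1. Neural markers summed to 7540.0, against 7566 to 9080 in the other exposed embryos and 10179 to 10359 in controls. The part of yolk sac endoderm or liver RNA in the stress transcripts of this embryo was not tested, and in whole embryos a change in cell types and a change within cells cannot be told apart. Y-linked transcripts differed between the groups too, and Eif2s3y was above a signal of 100 in 1 of 5 exposed embryos (NTD embryo 2) and in 2 of 2 controls. Xist had signals of 165 to 256 in these 3 embryos and 6074 to 7533 in the other 4 exposed embryos. By these transcripts sex was not balanced between exposed and control embryos, nor between NTD and non-NTD embryos. The part of sex in any difference was not tested.

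The comparison of NTD with non-NTD embryos lies within 1 litter and was tested for the 24 probe sets in a limma fit of the 3 groups. None of them was called, and neither was any of the 14554 tested probe sets (0% called), while 3.02% of all had an unadjusted p under 0.05. Among the 24, that held for 2. Xbp1 1420011_s_at had signals of 846 and 752 in NTD embryos 1 and 2 and 391, 726 and 452 in non-NTD embryos 1, 2 and 3, with 815 and 672 in controls. NTD embryos were higher by 0.66 on the log2 scale (SE 0.24, unadjusted p = 0.023, adjusted p = 0.999 by limma), and both exceeded all 3 non-NTD embryos. For Atf4 1448135_at the log2 difference of NTD minus non-NTD embryos was -0.51 (SE 0.21, unadjusted p = 0.037, adjusted p = 0.999 by limma), with both NTD embryos below all 3 non-NTD embryos.

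Non-NTD embryo 1 bore on both. Without it none of the 24 probe sets had an unadjusted p under 0.05, and the log2 differences were 0.48 for Xbp1 (unadjusted p = 0.073, adjusted p = 1.00 by limma) and -0.28 for Atf4 (unadjusted p = 0.082, adjusted p = 1.00 by limma). The largest differences in size, -0.95 (SE 0.74) for Chac1 and -0.69 (SE 0.49) for Herpud1 1448185_at, were 0.03 and -0.05 without it. For Hspa5 the differences were 0.04 (SE 0.12) and 0.33 (SE 0.15), and for the 6 probe sets of Phgdh they ran from -0.12 to 0.02. With 2 embryos against 3, differences of the size of these standard errors could not be detected.

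Other genes of the same responses were taken from 5 lists by known role. Of 111 listed genes 103 had a probe set of their own and 95 were tested, with 167 probe sets. In exposed against control embryos none of the 167 was called, at a background of 0.172%. At an unadjusted p under 0.05, 15 were higher and 10 lower in exposed embryos, 15% of the 167 against 16.2% of all tested probe sets, and the methods' t-test gave 22 and none after adjustment. The share in these lists was thus close to that over the whole array.

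Of genes for amino acid synthesis and transport, 5 of 26 probe sets were higher and none lower at an unadjusted p under 0.05, with a median log2 fold change of 0.37, which was 0.15 without non-NTD embryo 1. The 5 were of Shmt2 and Mthfd2, enzymes of mitochondrial one-carbon metabolism, and of Aldh18a1, which begins proline synthesis. Shmt2 (1426423_at) had signals of 718 and 675 in NTD embryos 1 and 2, 933, 754 and 691 in non-NTD embryos 1, 2 and 3, and 400.1 and 505 in controls 1 and 2, a log2 fold change of 0.74 (SE 0.16, adjusted p = 0.084 by limma). Aldh18a1 (1437620_x_at) had signals of 169 and 163 in NTD embryos, 248, 139 and 166 in non-NTD embryos, and 78.0 and 91.6 in controls, a log2 fold change of 1.04 (SE 0.26, adjusted p = 0.11 by limma). In these 2 probe sets every exposed embryo lay above both controls, and neither was called. The groups overlapped in 3 of the 5 tested probe sets of Aldh18a1 and in 1 of the 3 of Shmt2 (1434204_x_at). Mthfd2 (1419253_at) had a log2 fold change of 0.73 (SE 0.32, adjusted p = 0.30 by limma), and its other probe set had 0.51 (SE 0.41), which was 0.18 without non-NTD embryo 1.

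Of stress transcription factors and feedback genes, 5 of 27 probe sets were higher and 2 lower at that level. Trib2, a relative of Trib3, had signals of 774 and 773 in NTD embryos 1 and 2, 694, 797 and 769.6 in non-NTD embryos 1, 2 and 3, and 1183 and 1117 in controls 1 and 2 (1426640_s_at, log2 fold change -0.60, SE 0.12, adjusted p = 0.068 by limma). Its second probe set also lay lower in every exposed embryo. Ddit4, an inhibitor of mTORC1 signaling, had a log2 fold change of 0.76 (SE 0.23, adjusted p = 0.16 by limma), and Vegfa, a growth factor for blood vessels and an ATF4 target, 0.78 (SE 0.26, adjusted p = 0.19 by limma, 1420909_at) and 0.31 (SE 0.23, 1451959_a_at). Vldlr, a lipoprotein receptor, Eif4ebp1, a repressor of translation, and Bbc3, a promoter of apoptosis, were the others below that unadjusted p.

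Of ER chaperones and degradation genes, 2 of 70 probe sets were higher and 6 lower at that level, with a median log2 fold change of -0.10, which was -0.06 without non-NTD embryo 1. Of the 6 lower ones 3 were of Sel1l. Sel1l, the partner of the HRD1 ubiquitin ligase in ER degradation, had signals of 161 and 157 in NTD embryos 1 and 2, 119.7, 108 and 163 in non-NTD embryos 1, 2 and 3, and 353 and 311 in controls 1 and 2 (1430692_a_at, log2 fold change -1.25, SE 0.23, adjusted p = 0.062 by limma). For its 3 other probe sets the log2 fold change was -0.43, -0.87 and -0.10 (SE 0.23 for 1425188_s_at, whose groups overlapped). Dnajc10, a disulfide reductase of the ER, had -0.57 (1452230_at, SE 0.13, adjusted p = 0.095 by limma), while its 2 other probe sets had -0.14 and -0.06. Txndc5, a protein disulfide isomerase, went the other way, with signals of 2498 and 2301 in NTD embryos, 2894, 2730.3 and 2724 in non-NTD embryos, and 1731 and 1685 in controls (1451091_at, log2 fold change 0.62, SE 0.12, adjusted p = 0.062 by limma), while its second probe set had 0.16 (SE 0.13).

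Of aminoacyl-tRNA synthetases, 2 of 21 probe sets were higher, both of Sars (seryl-tRNA synthetase), and 1 lower, of Wars (tryptophanyl-tRNA synthetase). Eprs, which charges glutamate and proline, came next among the genes of this list by its smallest p (1452157_at, log2 fold change 0.33, SE 0.16, adjusted p = 0.35 by limma). Of stress kinases and sensors, 1 of 23 was higher and 1 lower. The protease Mbtps1, which cleaves ATF6, had a log2 fold change of -1.54 (SE 0.46, adjusted p = 0.16 by limma, 1431385_a_at), while its 2 other probe sets had -0.15 and -0.22. Creb3l1, a membrane-bound transcription factor of the ER, had 0.61 (SE 0.19, adjusted p = 0.17 by limma), and Eif2b2, a subunit of the exchange factor for eIF2, had 0.23 (1437428_x_at, SE 0.12), with 0.09 and -0.04 for its other probe sets. Sel1l, Mbtps1, Aldh18a1, Ddit4 and Vegfa are on lists of genes that the study chose on these arrays, so that their direction is not independent evidence. The study lists Ddit4 and Vegfa as known HIF1 targets and proposes a response to hypoxia as a possible reading of their increase, which was not tested here.

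Between NTD and non-NTD embryos none of the 167 probe sets was called, and 1 was higher and 6 lower at an unadjusted p under 0.05, 4.19% against 3.02% of all. Vegfa was among the lower ones with both of its probe sets, at -0.55 and -0.52, as were Mthfd2 (1419253_at) at -0.80 and Eif4ebp1 (1417562_at) at -0.77. All of these had their highest signal in non-NTD embryo 1, and without it the differences were -0.30 and -0.32 for Vegfa, -0.54 for Mthfd2 and -0.36 for Eif4ebp1.

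**Figure D4:**
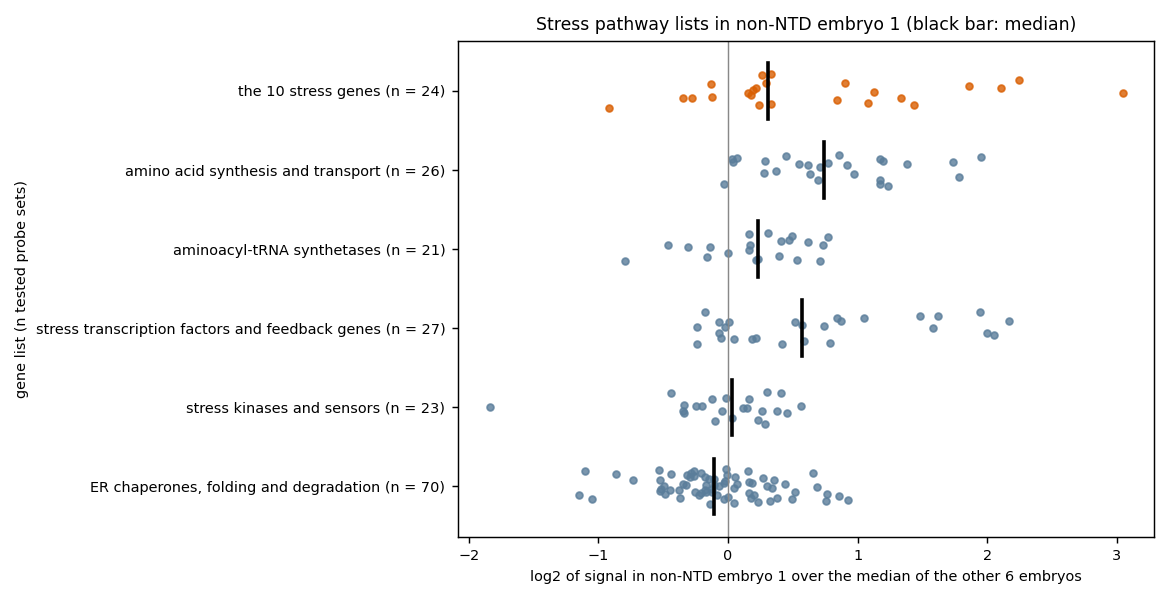
Log2 ratio of the signal in non-NTD embryo 1 over the median of the other 6 embryos (1 point per tested probe set, black bars are medians) for the 10 genes and for the 5 lists of other stress pathway genes. Points of amino acid synthesis and transport lie mostly to the right of 0 with a median ratio of 1.67, whereas ER chaperones and degradation genes centre near 0 with a median ratio of 0.928.

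In non-NTD embryo 1 the other pathway genes differed by list. Of all tested probe sets, 23.2% had their highest signal in this embryo, 1.09% by more than 1.5 times, and 20.7% had their lowest. Of amino acid synthesis and transport, 21 of 26 probe sets had their highest signal in it, 8 by more than 1.5 times, with a median ratio of 1.67 over the median of the other 6 embryos. Mthfd2 (1419254_at) had a signal of 2412 in it and 625 to 854 in the others, Slc7a3, a carrier of cationic amino acids, 388 against 94.8 to 138, and Slc3a2, the heavy chain of several amino acid transporters, 3574 against 1260 to 1633. Slc1a4, a neutral amino acid carrier, Gpt2, an alanine aminotransferase, and Psph, the last enzyme of serine synthesis, were the others.

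Of stress transcription factors and feedback genes 15 of 27 were highest in it, 8 by more than 1.5 times, with a median ratio of 1.48. Sesn2, an inhibitor of mTORC1 signaling, had a signal of 765 in it and 103 to 199 in the others (1451599_at), Vldlr 866 against 124 to 398 (1434465_x_at), Stc2, a secreted glycoprotein, 491 against 112 to 188 (1449484_at), and Eif4ebp1 2615 against 753 to 1207 (1417562_at). Cebpb, a transcription factor that can pair with ATF4, and Vegfa were the others. Atf3, a transcription factor induced by ATF4, was below the filter in the other embryos and not tested, with 369 in non-NTD embryo 1 against 53.5 to 106.

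Of ER chaperones and degradation genes, 15 of 70 were highest in this embryo, 21.4% against 23.2% of all tested probe sets. In it 23 were lowest, 32.9% against 20.7% of all, and the median ratio was 0.928. Only Ero1a (1449324_at), an oxidase of the ER, exceeded 1.5 times every other embryo, at 1635 against 747 to 1042. Calr, a calcium-binding chaperone, was lowest in it, at 4228 against 6144 to 7362 (1417606_a_at). Aminoacyl-tRNA synthetases were highest in 12 of 21 (57.1%) and kinases and sensors in 7 of 23 (30.4%). Their median ratios were 1.17 and 1.02, and none was highest by more than 1.5 times. Derl2 (1435101_at) and Edem2, both of ER degradation, were also highest in it, at 1.69 times the median of the other 6. The other Derl2 probe set (1448438_at) was lowest in it, at 312 against 333 to 426. The 6 probe sets of Phgdh were at 1.11 to 1.22 times the median of the other 6. The difference between these lists was not tested, as it lies in 1 embryo.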

How the data were processed

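RNA of 7 whole embryos was measured on 7 one-colour arrays, with 1 embryo each. The authors deposited linear signal intensities, which they had obtained with MAS5 and scaled array by array. After 2% of the probe sets at each end were left out, the mean was 500.2 on all arrays. No version of MAS5 is named in the labels or methods. Detection calls were left unused. Precision is limited by the number of arrays.

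The array holds 22690 probe sets, of which 64 are controls and were left out. A probe set was tested if its signal reached the 40th percentile of the array (131 to 146) in at least 2 of the 7 arrays, which 14554 did. Gene names came from the array annotation. Signals below 1 were set to 1 and tested on the log2 scale in R 4.3.3 with limma 3.58.1, whose eBayes step used a mean-variance trend, and with Benjamini-Hochberg adjustment over all tested probe sets. A first fit set the 5 exposed embryos against the 2 controls, and a fit of 3 groups set the 2 NTD against the 3 non-NTD embryos. The methods' t-test (Welch's test) was run on the same log2 signals and adjusted over all tested probe sets. The study applied it to probe sets that had passed its filter on fold change, which was not used here. Cyber-T was not run.

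The members and lists were chosen with earlier results of these data known. The genes to name were the 10 members, from each list of other pathway genes those called and otherwise up to 3 genes of smallest p, 4 yolk sac and liver markers, and probe sets with 1 outlying embryo. Pathway genes named only for a high signal in non-NTD embryo 1, Alb, Eif2s3y and Xist were chosen after their values were seen. Promoter windows came from the RefSeq table for GRCm38.p6, in which all 10 genes matched by symbol. Data were simulated with the levels of the 14554 probe sets and with their spreads shuffled among them. Values were drawn independently, without a spread between litters. On these data limma, run as for exposed against control embryos, recovered 54% of 100 changes of 2-fold and 93% of 100 changes of 4-fold, with 9 false calls among 156. Shuffling removed the relation of spread to signal level that the mean-variance trend models, so the rates need not carry over to the real arrays. Nor need they hold for probe sets of wide spread, such as those of Chac1 and Ddit3. Figures were drawn with Matplotlib 3.10.9, and tables were made with Python 3.11.15, pandas 2.3.3 and NumPy 2.4.6. The pooled-embryo arrays of the same study were not analysed here.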

Additional observations from a re-analysis of the deposited data

Results flagged for a closer look

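In 7 of the 25 probe sets of the 10 stress genes (28%) 1 of the 5 exposed embryos lay apart from the other 4 by Dixon's criterion, against 6.62% of all tested probe sets. Chance marks about 1 in 20 groups of normally distributed values, but the criterion was applied to linear signals, for which that rate need not hold. The probe sets of 1 gene are not independent, and the genes were chosen with results of these arrays known. The 25 include the Atf4 probe set that was not tested, which was not marked. In all 7 marked probe sets the embryo was non-NTD embryo 1, with the highest signal, as in 2.49% of all tested probe sets. The signals were 687 for Ddit3, 433 for Trib3 (1426065_a_at), 886 and 906 for Herpud1 (1435626_a_at and 1448185_at), 2964 for Asns (1451095_at), 1339 for Chac1 and 2146 for Phgdh (1456584_x_at).

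The same criterion marked 27 of the 167 probe sets of other pathway genes (16.2%). Of these, 19 were highest in non-NTD embryo 1, which is 11.4% of the 167 against 2.49% of all tested probe sets. Among genes of amino acid synthesis and transport these were Psph at 514, Slc7a3 at 388, Mthfd2 (1419254_at) at 2412, Slc1a4 at 511 (1423549_at) and 243 (1456003_a_at), Slc3a2 at 3574, Cth, an enzyme of cysteine synthesis, at 227, Gpt2 (1434542_at) at 317 and Aldh18a1 (1437620_x_at) at 248. Among stress factors and feedback genes they were Eif4ebp1 (1417562_at) at 2615, Sesn2 at 459 (1425139_at) and 765 (1451599_at), the transcription factor Atf5 at 507 and Stc2 (1449484_at) at 491. The other high signals of this embryo were 1469 for Lars, 1055 for Cars and 1281 for Yars, which charge leucine, cysteine and tyrosine, 454 for Derl2 (1435101_at), a channel factor of ER degradation, and 1635 for Ero1a (1449324_at).

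It was the lowest exposed embryo for Calr at 4228 (1417606_a_at) and 3520.4 (1433806_x_at) and for Trib2 at 694 (1426640_s_at). In other embryos the outlying signals were 709.96 for the transcription factor Creb3 (1419979_s_at, highest) in non-NTD embryo 2 and 28.6 for Mbtps1 (1431386_s_at, lowest) in NTD embryo 1. In NTD embryo 2 they were 757 for Erp44, a retrieval factor of the ER (1423247_at, highest), 129 for Pdia6, a disulfide isomerase (1430983_at, lowest), and 1975 for Iars, which charges isoleucine (1452154_at, highest).

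For Xbp1 (1420011_s_at) both NTD embryos lay above and all 3 non-NTD embryos below the mean of the controls. The difference of NTD minus non-NTD embryos was 0.66 on the log2 scale (unadjusted p = 0.023, adjusted p = 0.999 by limma), and the other 3 probe sets of Xbp1 had 0.03, 0.20 and 0.11.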

How the results depend on the processing

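No stress gene was called in either comparison under any of the alternatives. Over all tested probe sets the 25 calls of exposed against control embryos were 8 without the filter on low signals, 50 after adding 50 to each signal, 10 without the mean-variance trend, 491 with array quality weights and 0 with the methods' t-test, where 2651 had an unadjusted p under 0.05. That t-test was run without the study's filter on fold change, so that its count cannot be set against the study's. Leaving out 1 embryo at a time gave 0 to 58 calls, with 58 and 10 without NTD embryos 1 and 2, 40, 19 and 6 without non-NTD embryos 1, 2 and 3, and 1 and 0 without controls 1 and 2. The cause was not tested. Among the other pathway genes no call became 1 after adding 50 (Sel1l) and 6 with array quality weights (Sel1l, Txndc5, Dnajc10, Shmt2, Aldh18a1 and Trib2), and stayed 0 to 0 when 1 embryo was left out. Their 25 probe sets at an unadjusted p under 0.05 were 11 without control 1 and 16 without control 2. Between NTD and non-NTD embryos leaving out 1 embryo gave 0 to 2 calls over all probe sets, 2 without NTD embryo 1. The 2 stress gene probe sets at an unadjusted p under 0.05 in that comparison were 0 and 1 without NTD embryos 1 and 2, 0, 4 and 2 without non-NTD embryos 1, 2 and 3, and 1 without either control.

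The median log2 fold change of the stress genes, 0.147, was -0.022 without non-NTD embryo 1 and 0.11 to 0.18 without each other embryo, 0.01 with the filter passed in all 7 arrays, 0.04 with array quality weights and 0.19 with the brightest probe set of each gene. The labels give embryos of different groups the same numbers, and the deviations of same-numbered embryos correlated at -0.25 to 0.03. Each of these values recurred with the opposite sign in a pair of different numbers, so that the same-numbered and the other pairs are not independent. The correlations therefore cannot decide whether a number also marks a shared processing step. Number 3 belongs to non-NTD embryo 3 alone, so that a block on the number removes this embryo from the estimates. In the fit with this block 0 of all probe sets were called. Herpud1 1435626_a_at changed sign there to 0.03, the same estimate as without non-NTD embryo 3.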
